A study of Mus musculus with 12 samples.

Results

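Autophagy is the process by which a cell wraps proteins or organelles in a double membrane and delivers them to the lysosome. It was followed here through 40 genes of the autophagy machinery, picked by symbol, for their known function, from the 32761 genes of the count table, with earlier results of these data known. All 40 were found in the table, and all 40 passed the filter on low counts and were tested. Dram1 passed it only through the late mutant libraries. They were sorted by known function into 7 groups, which hold the initiation complex (5 genes), the class III PI3 kinase complexes (6 genes), the supply of membrane to the growing autophagosome (7 genes), the conjugation machinery (10 genes), the Atg8 family (5 genes), the cargo receptors (5 genes) and the DRAM proteins (2 genes).

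RNA came from the corneal endothelium of mice homozygous for the Col8a2 Q455K allele and of wild-type mice, at an early stage (at most 2 months of age) and a late stage (at least 8 months). Col8a2 encodes a collagen chain of the basement membrane of this cell layer, and the allele is studied as a mouse model of Fuchs endothelial corneal dystrophy. The 4 groups were early mutant, early wild type, late mutant and late wild type, with 3 biological replicates each. The headers of the authors' comparison tables name the wild-type groups c57, and no strain is named there for the mutants. No transgene or Cre is named in the labels. All early libraries were batch 1 and all late libraries batch 2, so a difference between the stages cannot be told apart from a difference between batches.

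The pathway works in steps. The Ulk1 kinase complex starts the process, the Beclin 1 complexes with the lipid kinase Vps34 mark the forming membrane with phosphatidylinositol 3-phosphate, and Atg9, Atg2, WIPI proteins and the scramblases Vmp1 and Tmem41b supply lipid. A ubiquitin-like conjugation system then attaches Atg8 proteins (LC3 and GABARAP) to the membrane, and cargo receptors such as p62, the product of Sqstm1, link cargo to them. Much of the pathway's activity is set on proteins, by phosphorylation, lipidation and turnover, which RNA levels do not show. Post-mitotic cells such as the corneal endothelium depend on autophagy for the turnover of damaged organelles.

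The results turn on 3 members, Sqstm1, Dram1 and Tax1bp1, and the DNA around their annotated starts is shown to identify them. Each window runs from 250 bases before to 50 bases after a transcript start in RefSeq (mouse build GRCm38.p6, a different build from the one named for the reads), 5′ to 3′ on the gene's strand, in lower case with motifs in capitals. Sqstm1 lies on the minus strand at chr11:50210771-50211070, Dram1 on the minus strand at chr10:88357026-88357325, and the Tax1bp1 window shown on the plus strand at chr6:52713915-52714214. The other window listed for Tax1bp1, at chr6:52713479-52713778, held none of the motifs sought, and the one with a motif is shown. Capitals mark TATAAA (the letters of a TATA box, sought on the strand shown) in Sqstm1, where they begin at the last base before the annotated start and not upstream of it, where a TATA box is known to lie, and TGACNNNGC (the core of the antioxidant response element, sought on both strands) in Tax1bp1, and the Dram1 window held neither.
Sqstm1: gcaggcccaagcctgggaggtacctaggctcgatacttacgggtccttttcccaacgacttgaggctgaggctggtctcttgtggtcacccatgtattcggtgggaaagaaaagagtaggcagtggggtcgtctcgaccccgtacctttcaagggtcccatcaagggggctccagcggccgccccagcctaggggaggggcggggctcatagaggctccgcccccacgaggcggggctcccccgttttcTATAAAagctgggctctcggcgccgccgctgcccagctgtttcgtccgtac
Dram1: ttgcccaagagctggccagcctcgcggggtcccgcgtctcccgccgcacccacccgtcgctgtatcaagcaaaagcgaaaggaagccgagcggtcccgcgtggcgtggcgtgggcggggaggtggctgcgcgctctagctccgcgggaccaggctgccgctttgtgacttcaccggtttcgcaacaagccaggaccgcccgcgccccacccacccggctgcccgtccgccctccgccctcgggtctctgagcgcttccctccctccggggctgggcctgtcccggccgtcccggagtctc
Tax1bp1: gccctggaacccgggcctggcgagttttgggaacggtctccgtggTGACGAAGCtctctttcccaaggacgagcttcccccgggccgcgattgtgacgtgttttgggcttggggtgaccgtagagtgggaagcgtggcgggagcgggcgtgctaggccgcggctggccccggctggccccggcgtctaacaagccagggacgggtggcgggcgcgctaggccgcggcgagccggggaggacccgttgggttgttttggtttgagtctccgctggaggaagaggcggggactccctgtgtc

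Of the 40 members, 34 had at least 1 such window, 40 windows in all. TATAAA was present in 2 of these 40 windows (Atg4a and Sqstm1), against 8.32% of the 32851 windows of all genes. TGACNNNGC was present in 7 of the 40, in 5 members (Atg13, Map1lc3b, Tax1bp1, Ulk2 and Vmp1), against 12.4% of all windows. CACGTG, the E-box within the element bound by the TFEB family, was sought on both strands and was present in 4 (Atg3, Atg5, Atg7 and Atg14), against 7.15% of all windows. TGANTCA, the AP-1 site, was present in 0 of the 40, against 7.81% of all. These matches describe letters in a window and say nothing of binding.

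The libraries held 19722598 to 39431676 counted reads, at which 3 reads correspond to 0.076 to 0.152 CPM (the count of a gene scaled by library size). The depth was enough for most members: 34 of 40 had at least 100 reads in every library, and the lowest count outside Dram1 was 46 reads, for Atg4c. Late wild-type replicate 1 stood apart within its group. Its variance against replicates 2 and 3 was 235 and 237 times the sampling noise, against 59.1 times between those 2. The factor that scales its library size (TMM) was 1.10, near the 1.16 and 1.12 of early wild-type replicates 2 and 3. That factor was 0.84 in early wild-type replicate 1, 0.87 and 0.93 in late wild-type replicates 2 and 3, and 0.93 to 1.21 in mutant libraries. Early wild-type replicate 1 was high for several members named below. The 9 corneal endothelium markers were detected in all groups. Their summed levels were 54205 to 65612 CPM in early mutant and 55772 to 108351 in early wild type. Late, they were 37957 to 67998 in mutant and 75831 to 98225 in wild type, lower in mutants without overlap. Of the 9, 0 were called late, and 4 were lower and 1 higher in late mutants without overlap, against 10.9% and 14.9% of all genes. Of 15 macrophage markers, 9 were significantly higher in early mutant libraries and 13 in late mutant libraries, and their summed level was 340.0 to 785 CPM in early mutant, 50.8 to 94.5 in early wild type, 530.4 to 637 in late mutant and 61.3 to 100.3 in late wild type. Of 9 photoreceptor markers, 3 were significantly higher in early mutant libraries and 0 in late mutant libraries (6 at an unadjusted p under 0.05), with sums of 131 to 300.4 CPM in early mutant, 18.4 to 42.3 in early wild type, 52.4 to 262 in late mutant and 33.0 to 91.5 in late wild type. Of 4 trabecular meshwork markers, 2 were significantly higher in early mutant libraries (Mgp and Chil1) and 3 in late mutant libraries (these and Angptl7), with sums of 678 to 1203 CPM in early mutant, 123 to 465 in early wild type, 926 to 1328 in late mutant and 158 to 346 in late wild type. The sums of 6 melanocyte markers, 0 of which were called at either stage, were 90.6 to 228 CPM in early mutant and 29.2 to 42.0 in early wild type, and overlapped late. No marker of these lists was at 0 in a whole group. The part of such cells in the values that follow was not tested, and in bulk tissue fewer cells of a type and less RNA per cell cannot be told apart.

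Of the 40 autophagy genes, 1 (Sqstm1) passed the test of mutant against wild-type corneal endothelium, at the late stage, and the shares of members called were near or below those of all genes. A value that missed the threshold does not show that a gene did not differ. At the early stage 0 of the 40 passed an adjusted p of 0.05 in edgeR's quasi-likelihood test with Benjamini-Hochberg adjustment over all 17965 genes tested, against 0.59% of all genes (0.557% higher and 0.0334% lower). DESeq2 and limma-voom also called 0, against 1.37% and 0.835% of all genes. At an unadjusted p under 0.05 there were 4 members (Tmem41b, Sqstm1, Wipi1 and Atg13), all with higher means in mutants, which is close to the 8.77% of all genes. The early log2 fold changes ran from -0.74 (Atg4c) to 0.88 (Tmem41b). Their median was 0.12, against -0.11 over all genes, and 25 of 40 were above 0, against 43.1% of all genes.

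At the late stage 1 member, Sqstm1, was significantly higher in mutants (2.77% of all genes were called higher) and 0 were significantly lower (2.71% of all genes, 5.47% in either direction). In all, 11 members had an unadjusted p under 0.05, close to the 28.1% of all genes. Among them was Dram1, which passed the filter on low counts only through the late mutant libraries. The late log2 fold changes ran from -1.34 (Atg4c) to 5.44 (Dram1). Their median was 0.24, against 0.00 over all genes, and 25 of 40 were above 0, against 50.1% of all genes. The 5 called by DESeq2, which called 13.8% of all genes, were Sqstm1 and Dram1, higher, and Atg4c, Tax1bp1 and Uvrag, lower. limma-voom, which called 9.71% of all genes, called Sqstm1 higher and Rb1cc1 lower.

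The late count changed with late wild-type replicate 1. Without it 9 members were called, of which 7 were higher in mutants (Atg13, Atg4d, Atg9a, Dram1, Nbr1, Sqstm1 and Tmem41b) and 2 lower (Gabarapl2 and Tax1bp1). Calls over all genes also grew, to 3909 (20.3%) against 983, and the median over all genes moved to 0.27, against a median of 0.56 over the members. Values given below for a gene without this library come from this setting. Leaving out any single one of 8 other libraries (early mutant replicates 1 and 3, replicate 3 of early wild type, any late mutant replicate, or late wild-type replicates 2 and 3) gave a late count of 0. In those 8 settings 1.19% to 5.03% of all genes were called late.

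**Figure D1:**
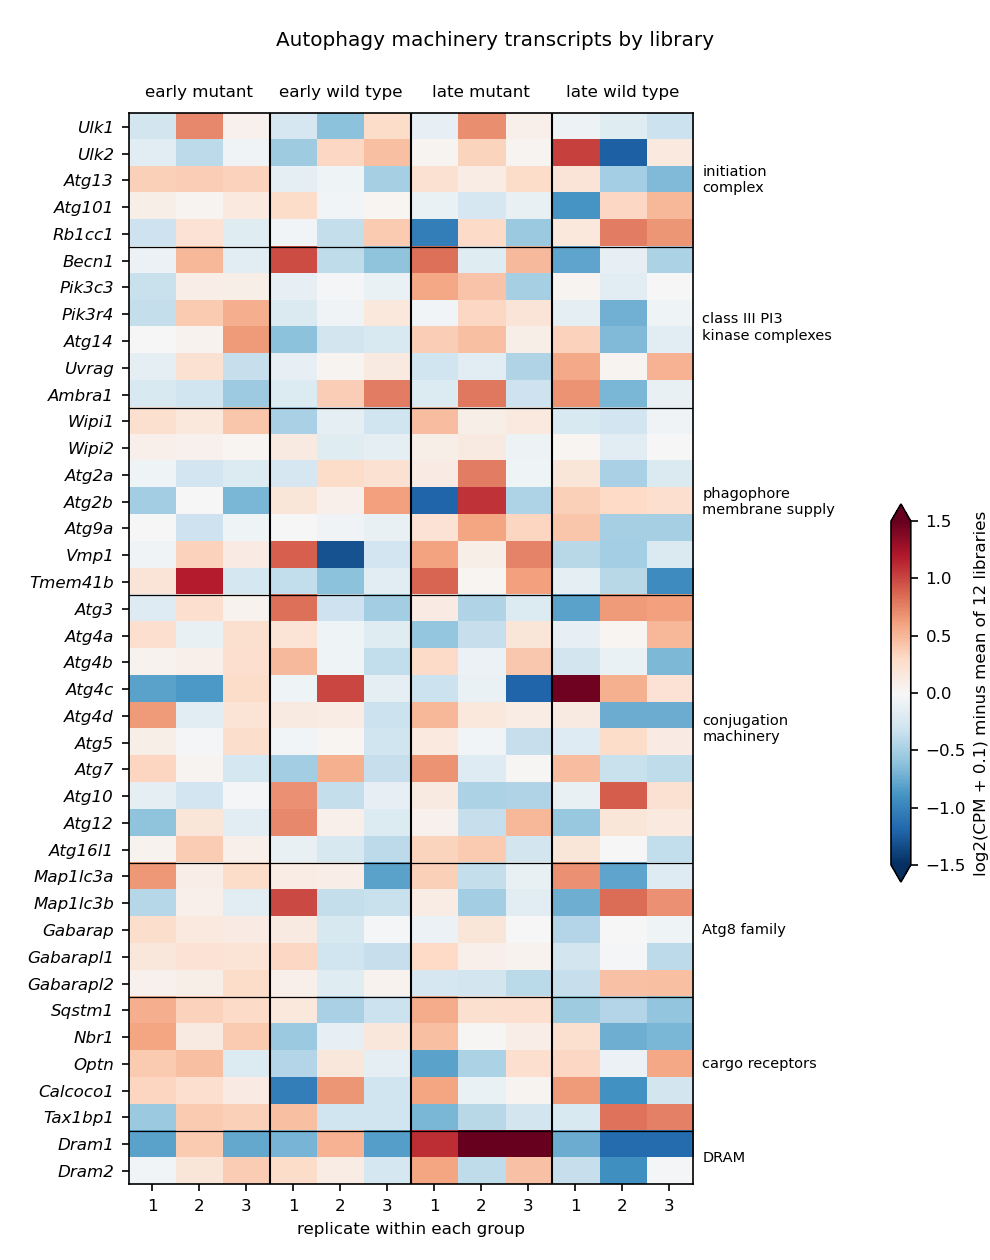
The 40 members (rows, by role) in the 12 libraries (columns, mutant groups left of their wild-type groups), coloured by log2 of CPM plus a small constant, relative to the gene's mean over the libraries. Replicate 1 of each wild-type group differs from the other libraries of its group for several members, and Dram1 is highest in the 3 late mutant libraries.

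**Figure D2:**
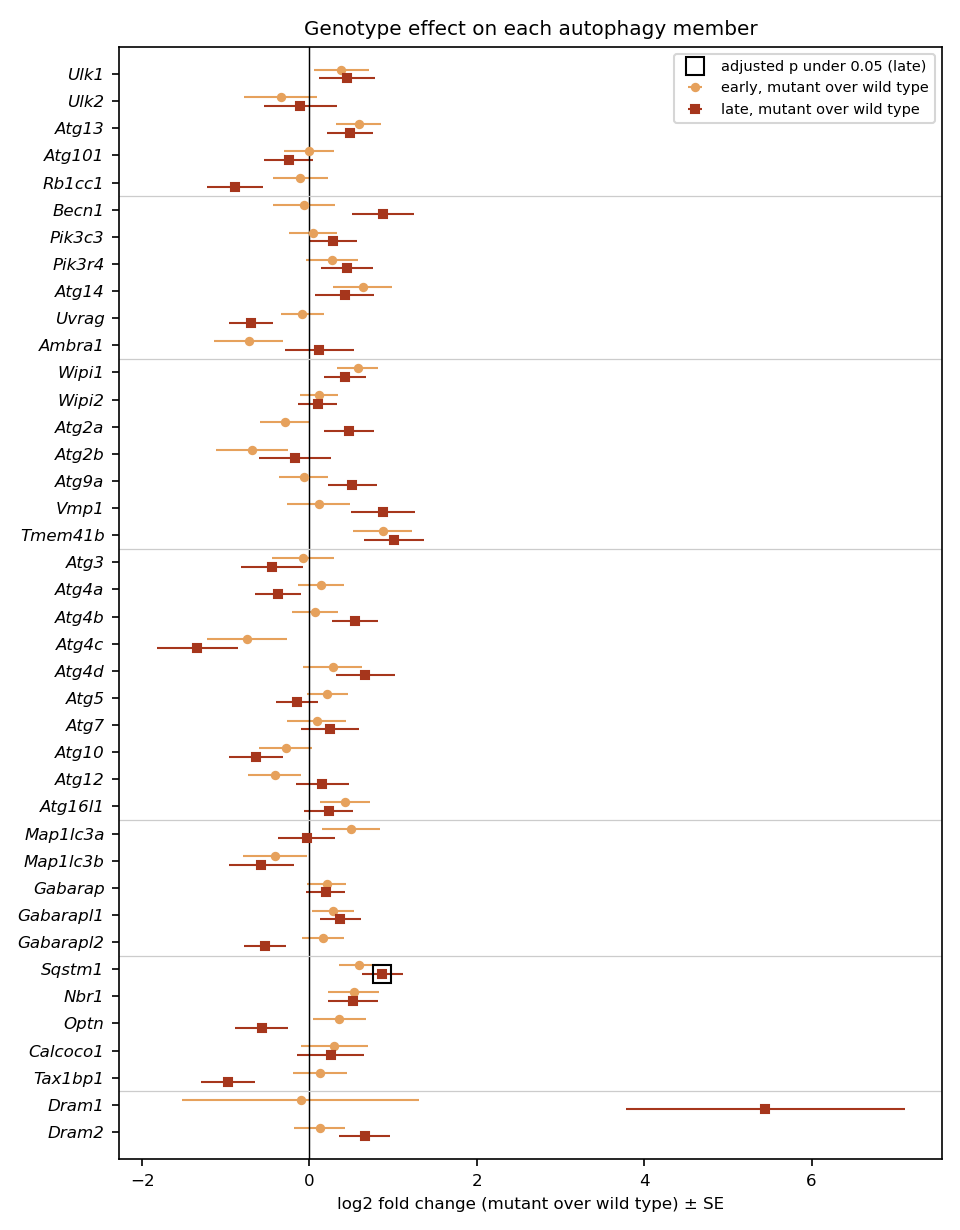
Log2 fold changes of mutant over wild type (x axis) for the 40 members (y axis) at the early stage (circles) and the late stage (squares), with bars of 1 standard error and a box around the late value that passed the test. The early values lie between -0.74 and 0.88, and late Dram1, at 5.44, rests on few reads.

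The initiation complex receives nutrient signals and starts autophagosome formation. None of its 5 members passed the test at either stage, with 1 at an unadjusted p under 0.05 at each. DESeq2 called 0 of them, and limma-voom called 1 late (Rb1cc1, lower in mutants). Ulk1, the kinase of the complex, had 9.23, 18.5 and 11.7 CPM in early mutant libraries, against 9.40, 7.30 and 13.6 CPM in early wild type. It had 10.3, 18.1 and 11.8 CPM in late mutant libraries, against 10.7, 9.87 and 8.94 CPM in late wild type. The groups overlapped at both stages, and the log2 fold changes were 0.38 ± 0.33 (SE, adjusted p = 0.692) early and 0.45 ± 0.33 (adjusted p = 0.389) late. Atg13, the regulatory subunit that binds the kinase, was at 24.9, 25.2 and 24.8 CPM in early mutant libraries, against 17.6, 18.6 and 13.7 CPM in early wild type. Late, Atg13 was at 22.8, 20.9 and 23.6 CPM in mutant libraries, against 22.2, 13.6 and 12.2 CPM in wild type. The early groups did not overlap, as was true of 10.1% of all genes in this direction, and the early log2 fold change of 0.59 ± 0.27 had an adjusted p of 0.547. The late one was 0.49 ± 0.27 (adjusted p = 0.244), and 0.93 without late wild-type replicate 1 (adjusted p = 0.0205), which alone of its group lay within the mutant range. With each library left out in turn, the late value ran from 0.33 to 0.93 (edgeR adjusted p from 0.0205 to 0.517).

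Rb1cc1, which encodes the scaffold FIP200, had the smallest late p of the complex. It had 14.1, 20.3 and 15.5 CPM in early mutant libraries, against 17.0, 13.7 and 23.0 CPM in early wild type. It had 8.46, 21.4 and 11.9 CPM in late mutant libraries, against 19.5, 29.9 and 27.9 CPM in late wild type. Late mutant replicate 2 lay above the lowest wild-type library, and the late log2 fold change was -0.89 ± 0.33 (adjusted p = 0.102), against -0.11 ± 0.33 early (adjusted p = 0.909). The second kinase gene, Ulk2, and the small subunit gene Atg101 had log2 fold changes between -0.34 and -0.01 at both stages. Atg101 spanned 34.5 to 90.3 CPM within late wild type, a wider range than in any mutant group.

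The class III PI3 kinase complexes make the lipid mark that recruits later factors. Of their 6 genes 0 passed the test at either stage, with 0 at an unadjusted p under 0.05 early and 2 late (Uvrag and Becn1). DESeq2 called Uvrag lower in late mutants, and limma-voom called 0. Becn1, which encodes the scaffold Beclin 1, had 42.7, 63.9 and 40.6 CPM in early mutant libraries, against 89.3, 34.8 and 29.8 CPM in early wild type. It had 80.4, 40.04 and 63.7 CPM in late mutant libraries, against 26.2, 41.6 and 32.5 CPM in late wild type. Its early difference had no stable sign, at -0.06 ± 0.37 on the log2 scale (adjusted p = 0.955) and 0.62 without early wild-type replicate 1. The late log2 fold change was 0.88 ± 0.37 (adjusted p = 0.138), with late mutant replicate 2 inside the wild-type range.

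Uvrag, a subunit of the Beclin 1 complex that acts on later, endosomal steps, was at 22.6, 29.1 and 19.5 CPM in early mutant libraries, against 22.9, 25.6 and 27.2 CPM in early wild type. Uvrag was at 20.3, 22.2 and 18.2 CPM in late mutant libraries, against 36.9, 25.6 and 35.9 CPM in late wild type. All 3 late mutant libraries lay below all late wild-type libraries, as in 10.9% of all genes, with a log2 fold change of -0.70 ± 0.26 (adjusted p = 0.0968). Atg14 encodes the subunit that directs the complex to autophagosome formation. Its levels were 5.14, 5.30 and 8.04 CPM in early mutant libraries, against 3.29, 4.22 and 4.36 CPM in early wild type, without overlap but with an adjusted p of 0.596 (log2 fold change 0.64 ± 0.36). The kinase gene Pik3c3 and the gene of its partner, Pik3r4, had log2 fold changes of 0.04 and 0.27 early and of 0.28 and 0.44 late. Ambra1, a Beclin 1 regulator, was at -0.73 early and 0.12 late.

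Among the 7 genes of membrane supply 0 passed the test at either stage, and DESeq2 and limma-voom also called 0. There were 2 at an unadjusted p under 0.05 early (Tmem41b and Wipi1) and 2 late (Tmem41b and Vmp1). On the log2 scale 6 of 7 late fold changes were above 0, against 50.1% of all genes, with a median of 0.47. Tmem41b, a lipid scramblase of the endoplasmic reticulum, had the largest difference of the group. It had 17.1, 33.9 and 12.4 CPM in early mutant libraries, against 11.6, 9.71 and 13.2 CPM in early wild type. It had 27.5, 15.3 and 23.0 CPM in late mutant libraries, against 13.6, 11.2 and 7.73 CPM in late wild type. The late groups did not overlap, while early mutant replicate 3 lay inside the wild-type range. The log2 fold changes were 0.88 ± 0.35 early (adjusted p = 0.496) and 1.01 ± 0.36 late (adjusted p = 0.0867), and 1.35 late without late wild-type replicate 1 (adjusted p = 0.0301). With each library left out in turn, the late value ran from 0.82 to 1.35 (edgeR adjusted p from 0.0301 to 0.240).

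Vmp1, the partner scramblase, was at 68.6, 91.0 and 77.7 CPM in early mutant libraries, against 133, 28.8 and 58.3 CPM in early wild type. In late mutant libraries Vmp1 was at 108, 75.6 and 119 CPM, against 53.4, 50.04 and 61.2 CPM in late wild type. The late groups did not overlap (log2 fold change 0.88 ± 0.38, adjusted p = 0.141), and the early wild-type libraries spanned more than the whole early mutant range. Wipi1, which binds phosphatidylinositol 3-phosphate on the growing membrane, was at 24.0, 22.7 and 27.1 CPM in early mutant libraries, against 14.5, 18.4 and 16.5 CPM in early wild type. Late, Wipi1 was at 28.0, 21.6 and 22.5 CPM in mutant libraries, against 17.4, 16.7 and 19.7 CPM in wild type. Wipi1 and Sqstm1 were the members with higher mutant values and no overlap at both stages. Of all genes, 10.1% were so early and 14.9% late, and the share at both stages was not counted. For Wipi1 neither log2 fold change, 0.58 ± 0.25 early (adjusted p = 0.511) and 0.42 ± 0.25 late (adjusted p = 0.262), passed the test.

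Atg9a, the membrane protein of the vesicles that seed the autophagosome, had 14.97, 12.05 and 14.3 CPM in early mutant libraries, against 15.01, 14.5 and 13.9 CPM in early wild type. It had 17.4, 22.8 and 18.8 CPM in late mutant libraries, against 20.1, 10.6 and 10.6 CPM in late wild type. The late log2 fold change was 0.51 ± 0.29 (adjusted p = 0.249), and 1.02 without late wild-type replicate 1 (adjusted p = 0.0179), the wild-type library that lay inside the mutant range. With each library left out in turn, the late value ran from 0.36 to 1.02 (edgeR adjusted p from 0.0179 to 0.513). The lipid transfer genes Atg2a and Atg2b were at -0.29 and -0.69 on the log2 scale early and at 0.47 and -0.17 late, and Wipi2 was at 0.11 and 0.10.

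The conjugation machinery, which lipidates the Atg8 proteins, held 10 members, of which 0 passed the test at either stage. At an unadjusted p under 0.05 there were 0 early and 1 late (Atg4c, which DESeq2 called lower in late mutants), and the median log2 fold changes were 0.08 early and 0.00 late. Atg4c, one of the proteases that process Atg8 proteins, was at 1.99, 1.91 and 4.33 CPM in early mutant libraries, against 3.41, 7.21 and 3.20 CPM in early wild type. Atg4c was at 2.82, 3.30 and 1.49 CPM in late mutant libraries, against 9.97, 5.18 and 4.16 CPM in late wild type. The late groups did not overlap, and the late log2 fold change of -1.34 ± 0.48 (adjusted p = 0.0926) was -0.75 without late wild-type replicate 1 (adjusted p = 0.271). The other proteases were at 0.14 (Atg4a), 0.07 (Atg4b) and 0.28 (Atg4d) early and at -0.37, 0.55 and 0.67 late on the log2 scale. Atg16l1, part of the ligase that directs lipidation, did not overlap early at 9.59, 12.05 and 9.77 CPM in mutant libraries, against 8.53, 7.82 and 7.01 CPM in wild type (log2 fold change 0.43 ± 0.30, adjusted p = 0.645). Atg5, which joins Atg12 in that ligase, was at 0.21 ± 0.25 early and -0.15 ± 0.25 late, Atg12 itself at -0.41 and 0.15, and the activating enzyme gene Atg7 at 0.09 and 0.24. The conjugating enzyme genes Atg3 and Atg10 were at -0.07 and -0.28 early and at -0.45 and -0.64 late.

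The Atg8 family supplied most of the members' transcripts. Per length, in the authors' FPKM, its 5 genes made up 73.3% of the summed level of the 40 members in early mutant, 74.0% in early wild type, 71.7% in late mutant and 74.7% in late wild type. Gabarap, whose protein acts mainly in autophagosome closure and fusion, averaged 363 ± 18.6 FPKM in early mutant, 338 ± 30.1 in early wild type, 376 ± 80.4 in late mutant and 289 ± 14.0 in late wild type (SD, n = 3 each). It was the highest member in 3 of the 4 groups. In late wild type Map1lc3b, which encodes LC3B, stood first at 350.5 ± 141 FPKM, with ranges that overlapped those of Gabarap.

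Gabarapl2 and Map1lc3a followed, with mean levels of 217 to 275 and 167 to 218 FPKM over the 4 groups, and Gabarapl1 was lowest of the 5 at 33.8 to 48.7 FPKM. Neighbours in this order overlapped between libraries, apart from Gabarapl1, whose range lay below that of Map1lc3a in every group, and apart from Gabarap in the 2 mutant groups, whose range lay above that of the next gene. Outside the family, Tax1bp1, Sqstm1, Atg3 and Atg101 were the next members by level, averaging 61.4, 59.6, 49.8 and 44.2 FPKM over the groups. The lowest were Atg4c at 0.510 FPKM and Dram1 at 0.0748 FPKM.

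**Figure D3:**
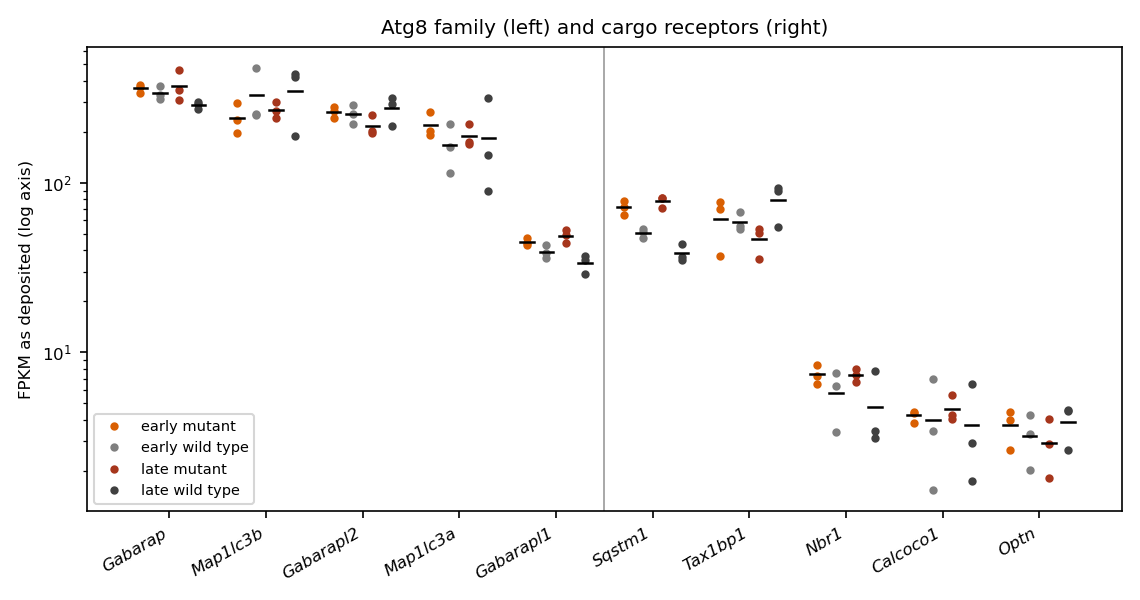
Deposited FPKM (log axis) of the 5 Atg8 family genes and the 5 cargo receptors, with a point for each library and a line at each group's mean, mutant groups left of their wild-type groups. By group mean, the Atg8 genes other than Gabarapl1 lie highest in all 4 groups, and Sqstm1 and Tax1bp1 lie above the other receptors.

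No Atg8 gene differed significantly between genotypes at either stage, with 0 at an unadjusted p under 0.05 early and 1 late (Gabarapl2), and DESeq2 and limma-voom called 0 of them. Map1lc3b had 545, 766 and 647 CPM in early mutant libraries, against 1455, 569 and 578 CPM in early wild type. It had 789, 509 and 656 CPM in late mutant libraries, against 439.9, 1301 and 1169 CPM in late wild type. Early wild-type replicate 1 lay above all early mutant libraries and the other 2 inside their range, while late wild-type replicate 1 lay below all late mutant libraries and the other 2 above them. Neither log2 fold change, -0.41 ± 0.39 early (adjusted p = 0.706) nor -0.57 ± 0.39 late (adjusted p = 0.337), passed the test. The early value was 0.21 without early wild-type replicate 1.

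Map1lc3a, which encodes LC3A, was at 295, 201 and 227 CPM in early mutant libraries, against 203, 202 and 108 CPM in early wild type. In late mutant libraries Map1lc3a was at 240.2, 147 and 174 CPM, against 302, 109 and 164 CPM in late wild type. The log2 fold changes were 0.50 ± 0.34 early (adjusted p = 0.645) and -0.03 ± 0.34 late (adjusted p = 0.964), with overlap at both stages. Gabarap, with the smallest error of the family, was at 454, 419 and 412 CPM in early mutant libraries, against 418, 322 and 373 CPM in early wild type. Late, Gabarap was at 356, 431 and 383 CPM in mutant libraries, against 279.9, 381 and 362 CPM in wild type. These are log2 fold changes of 0.21 ± 0.23 (adjusted p = 0.746) early and 0.19 ± 0.23 (adjusted p = 0.614) late.

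Gabarapl2, a close relative of Gabarap, was at 256, 261 and 297 CPM in early mutant libraries, against 259, 217 and 253 CPM in early wild type. Gabarapl2 was at 206, 203 and 185 CPM in late mutant libraries, against 193, 332 and 334 CPM in late wild type. Late wild-type replicate 1 lay inside the mutant range, and the late log2 fold change was -0.53 ± 0.25 with it (adjusted p = 0.172) and -0.62 without it (adjusted p = 0.0445). With each library left out in turn, the late value ran from -0.62 to -0.38 (edgeR adjusted p from 0.0445 to 0.458). Gabarapl1 had no overlap late, at 89.7, 76.9 and 75.9 CPM in mutant libraries, against 60.1, 71.9 and 55.7 CPM in wild type, and differed by 0.37 ± 0.25 on the log2 scale (adjusted p = 0.338).

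The cargo receptors held the member that passed the test. Sqstm1 encodes p62, which binds ubiquitinated cargo and LC3, is itself degraded by autophagy, and is also a transcriptional target of the stress factor Nrf2. It had 477, 415 and 396 CPM in early mutant libraries, against 362, 232 and 260.0 CPM in early wild type. It had 478, 384 and 387 CPM in late mutant libraries, against 226, 240.4 and 216 CPM in late wild type. Every mutant library lay above every wild-type library of its stage, as in 10.1% of all genes early and 14.9% late. The late log2 fold change was 0.87 ± 0.24 (1.83-fold, adjusted p = 0.0425, edgeR), and the early one was 0.59 ± 0.24 (1.51-fold, adjusted p = 0.504). The late call was near the threshold and was lost in 12 of 22 alternatives, 8 of which left out 1 library, with adjusted p from 0.0048 to 0.154, while the late log2 fold change stayed between 0.77 and 1.02. The macrophage and trabecular meshwork marker sums given above did not overlap between genotypes at either stage, and were higher in mutants. The late corneal endothelium sums were lower in mutants without overlap. The part of these cell types in the Sqstm1 difference was not tested. A test of the late minus the early difference gave 0.28 ± 0.34 (adjusted p = 0.81), so no difference between the stages was detected.

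**Figure D4:**
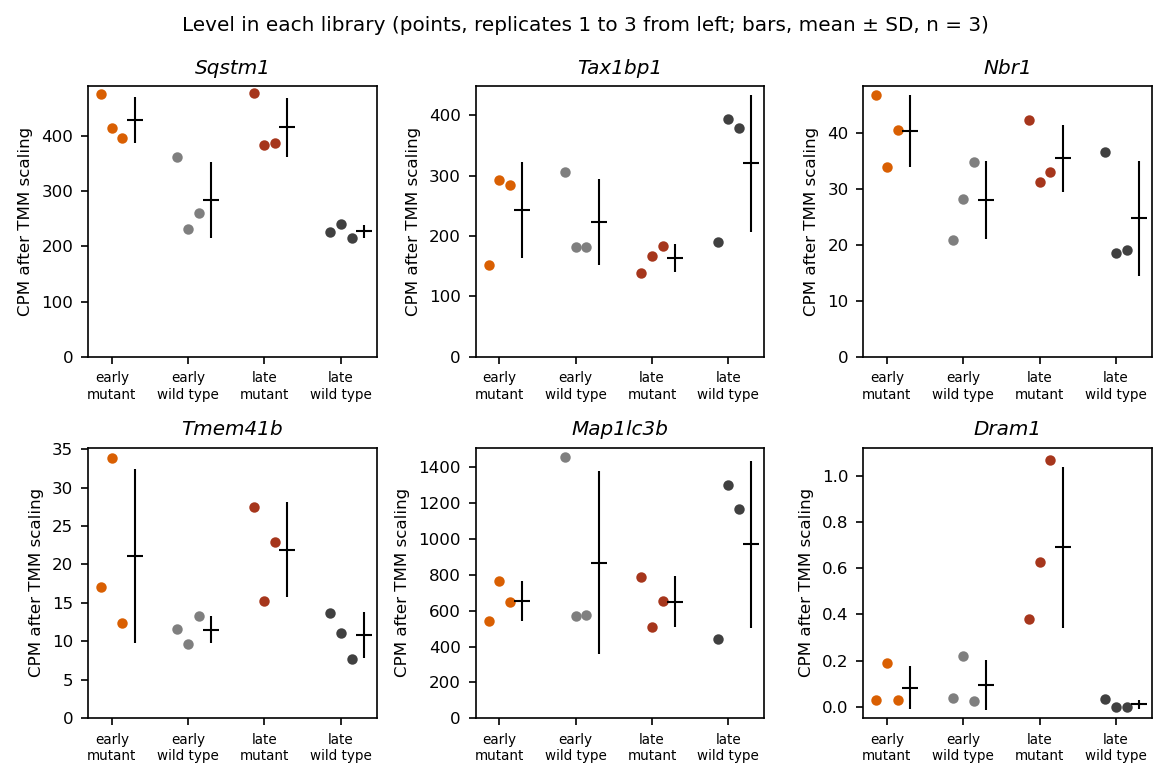
Levels in CPM after TMM scaling (y axis) of Sqstm1, Tax1bp1, Nbr1, Tmem41b, Map1lc3b and Dram1 in each of the 12 libraries (points), with the mean and SD of each group of 3 beside them. The late mutant libraries of Sqstm1 sit between 384 and 478 CPM, above all 3 late wild-type libraries.

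Tax1bp1, a receptor that binds ubiquitinated cargo and acts with p62 and NBR1, had lower values in late mutants. It had 151, 293 and 285 CPM in early mutant libraries, against 306, 182 and 181 CPM in early wild type. It had 139, 167 and 184 CPM in late mutant libraries, against 190.2, 394 and 379 CPM in late wild type. The late groups did not overlap, though late wild-type replicate 1 lay close to the highest mutant library. Only replicates 2 and 3 of that group, at 394 and 379 CPM, were far above the mutants. Both belong to a set of high wild-type libraries described below for Map1lc3b and Atg3, with the 306 CPM library of the early stage. The remaining wild-type libraries, at 181 to 190.2 CPM, lay inside the mutant range over both stages (139 to 293 CPM). The part of this split in the late Tax1bp1 difference was not tested. The late log2 fold change was -0.97 ± 0.33 (adjusted p = 0.0760), and -1.11 without that library (adjusted p = 0.0205). With each library left out in turn, the late value ran from -1.11 to -0.80 (edgeR adjusted p from 0.0205 to 0.213). The early value was 0.13 ± 0.32 (adjusted p = 0.894), and the difference between the stages, -1.10 ± 0.46, had an unadjusted p of 0.0266 and an adjusted p of 0.363.

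Nbr1, a receptor related in domain structure to p62, was at 46.8, 33.9 and 40.5 CPM in early mutant libraries, against 20.9, 28.3 and 34.8 CPM in early wild type. In late mutant libraries Nbr1 was at 42.4, 31.2 and 33.1 CPM, against 36.6, 18.5 and 19.1 CPM in late wild type. The log2 fold changes were 0.53 ± 0.30 (adjusted p = 0.599) and 0.52 ± 0.30 (adjusted p = 0.260), with the late one at 1.05 without late wild-type replicate 1 (adjusted p = 0.0211). With each library left out in turn, the late value ran from 0.35 to 1.05 (edgeR adjusted p from 0.0211 to 0.538). Optn, a receptor for damaged mitochondria and bacteria, was at 0.36 ± 0.32 early and -0.57 ± 0.32 late (adjusted p = 0.247), and Calcoco1 at 0.30 ± 0.40 and 0.25 ± 0.40. At the early stage all 5 receptors had higher means in mutants, where 43.1% of all genes had a log2 fold change above 0. Of the 5, 1 (Sqstm1) had an unadjusted p under 0.05. At the late stage 3 were higher and 2 lower.

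Dram1 encodes a lysosomal membrane protein known as a p53 target, and was barely expressed. It was counted 1, 7 and 1 times in early mutant libraries, against 1, 5 and 1 times in early wild type. It was counted 11, 21 and 33 times in late mutant libraries, against 1, 0 and 0 times in late wild type. Late mutant libraries were therefore at 0.378, 0.625 and 1.07 CPM, all above the level of 3 reads, and every late wild-type library was below it. Summed over the group, 65 reads in late mutant against 1 in late wild type gave a ratio of 56.4 with an exact 95% interval of 9.77 to 2260, which covers counting error only. At the early stage 9 reads against 7 gave a ratio of 1.08 (0.357 to 3.40). The fitted late difference had an adjusted p of 0.0588 in edgeR, 0.0179 in DESeq2 and 0.0378 in edgeR without late wild-type replicate 1. Dram1 passed the filter on low counts only through the late mutant libraries, the group where it was high. The late p-values, the late read ratio and its interval therefore give no separate support for a difference. The difference between the stages had an unadjusted p of 0.0187 and an adjusted p of 0.323. Macrophage marker sums, given above, were higher in mutant libraries at both stages. Of the 15 macrophage markers, 11 were higher in early mutant libraries without overlap (10.1% of all genes), and 15 in late mutant libraries (14.9% of all genes). The 4 that overlapped early and not late, as Dram1 did, were Csf1r, Adgre1, Ptprc and Mrc1, with log2 fold changes of 0.69, 0.76, -1.57 and -0.62 early and 2.83, 2.99, 2.64 and 1.86 late. Markers of other cell types were also higher late without overlap and overlapped early. They were 2 of 8 for keratocytes, 3 of 7 for lens, 1 of 8 for corneal epithelium and 1 of 4 for trabecular meshwork. The share of all genes with this pattern was not counted. Trabecular meshwork sums were also higher in mutants at both stages. The part of such cells in the Dram1 counts was not tested.

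Dram2, a related gene, was at 18.5, 21.6 and 24.9 CPM in early mutant libraries, against 23.2, 20.6 and 15.8 CPM in early wild type. Late, Dram2 was at 28.7, 14.7 and 26.0 CPM in mutant libraries, against 14.98, 10.03 and 18.9 CPM in wild type. The late log2 fold change was 0.66 ± 0.31 (adjusted p = 0.169), with late mutant replicate 2 inside the wild-type range. Dram1, Dram2, Becn1, Map1lc3b, Atg4a, Atg4d and Atg12 each overlap a protein-coding gene in the RefSeq gene table (Washc3, Cept1, Cntd1, Zcchc14, Psmd10, Kri1 and Ap3s1), and how strand was handled in counting is not stated, so reads of overlapping genes could be mixed. Sqstm1 and Tax1bp1 overlap none.

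In all, the groups did not overlap for 7 members early (5 higher in mutants, Atg13, Atg14, Wipi1, Atg16l1 and Sqstm1, and 2 lower, Ambra1 and Atg2b), against 21.9% of all genes (10.1% higher and 11.8% lower), and for 11 late (8 higher and 3 lower), against 25.9% of all genes (14.9% higher and 10.9% lower). The late ones were Pik3r4, Wipi1, Vmp1, Tmem41b, Atg4b, Gabarapl1, Sqstm1 and Dram1, higher, and Uvrag, Atg4c and Tax1bp1, lower. Dram1 is counted there though it passed the filter on low counts only through the late mutant libraries. Both shares are near the background of these data.

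The genotype difference changed between the stages in 0 of 40 members (edgeR; 2 at an unadjusted p under 0.05, Dram1 and Tax1bp1, against 11.2% of all genes). DESeq2 and limma-voom also called 0. By the adjusted p, 0.00557% of all genes were called. Within mutants, late libraries against early libraries gave 0 of 40 members called, with 1 at an unadjusted p under 0.05, against 6.53% of all genes (Dram1, 2.98 ± 1.38 on the log2 scale, adjusted p = 0.762), and 0% of all genes called, while DESeq2 called 0 and limma-voom 1 (Dram1, against 1.61% of all genes). Within wild type, late against early gave 0 of 40 members called, 0 at an unadjusted p under 0.05, against 4.03% of all genes, and 0% of all genes called, and DESeq2 and limma-voom also called 0 of the members. The groups did not overlap for 0 of 40 members in wild type, against 4.73% of all genes, and for 7 of 40 in mutants, against 19.3% of all genes. Sqstm1 was at -0.05 ± 0.24 in mutants and -0.32 ± 0.24 in wild type on the log2 scale, late over early. These comparisons carry the batch with the age. They also share their libraries with the comparisons of genotype.

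Genes that control autophagy or complete it were read from 7 further lists of 71 genes, all of which were tested. At the early stage 0 of 71 were called, against 0.59% of all genes, and 3 had an unadjusted p under 0.05, against 8.77%. At the late stage 2 were significantly higher and 0 lower, against 5.47% of all genes in either direction. Late, 18 had an unadjusted p under 0.05, against 28.1% of all genes. The shares of the 71 were thus near or below those of all genes. Median log2 fold changes were 0.06 at both stages. Ccpg1, a receptor for autophagy of the endoplasmic reticulum that is induced by stress in that compartment, was one of 6 such receptors. It had 54.3, 50.3 and 62.2 CPM in early mutant libraries, against 34.7, 43.9 and 21.5 CPM in early wild type. It had 76.6, 43.0 and 59.1 CPM in late mutant libraries, against 31.2, 20.2 and 14.0 CPM in late wild type. Mutant libraries were higher than wild type without overlap at both stages, as in 10.1% of all genes early and 14.9% late. The log2 fold change of Ccpg1 was 1.45 ± 0.33 late (2.73-fold, adjusted p = 0.0182) and 0.74 ± 0.32 early (adjusted p = 0.528). Tollip, an adaptor that links ubiquitinated cargo to Atg8 proteins, was one of 6 further selective autophagy factors. In early mutant libraries Tollip was at 43.2, 32.1 and 42.5 CPM, against 31.6, 33.1 and 22.1 CPM in early wild type. Tollip was at 50.3, 35.6 and 39.5 CPM in late mutant libraries, against 29.5, 12.4 and 13.1 CPM in late wild type. The late groups did not overlap (log2 fold change 1.19 ± 0.32, 2.28-fold, adjusted p = 0.0379). The late call was lost in 4 of 22 alternatives for Ccpg1 and in 8 of 22 for Tollip.

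In the other 5 lists edgeR called 0 genes at either stage. They hold 18 genes of mTORC1 and AMPK control, 12 of the Rag and folliculin branch, 7 transcription factors, 9 further core and regulatory subunits and 13 autophagosome fusion genes. At an unadjusted p under 0.05 there were 0, 1, 1, 0 and 0 early (8.77% of all genes) and 3, 3, 1, 4 and 3 late (28.1%). Over all 7 lists, DESeq2 called 7 late (Ccpg1, Tollip and Bcl2l1, higher, and Sesn1, Rragc, Foxo3 and Vamp8, lower), limma-voom called 9 late (4 higher and 5 lower), against 13.8% and 9.71% of all genes by the same tools, and both called 0 early. Tfeb, the transcription factor best known for switching on autophagy and lysosome genes, averaged 5.67 CPM in late mutant libraries and 4.73 CPM in late wild type (log2 fold change 0.26 ± 0.49, adjusted p = 0.762). Mtor, the kinase that holds autophagy down in fed cells, averaged 16.6 CPM in late mutant libraries and 16.9 CPM in late wild type (log2 fold change -0.02 ± 0.30, adjusted p = 0.973).

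The authors' deposited table of their own comparisons gave 0 of the 40 members a q-value under 0.05 early, where 1.87% of 17745 genes had one. For the late stage, the authors' deposited table gave 2 of 40, Dram1 (49.1-fold, q = 0.0370) and Tax1bp1 (0.475-fold, q = 0.0347), where 7.59% of 16663 genes had one. Sqstm1 had a q-value of 0.0535 there at 1.74-fold. The 2 analyses thus placed Sqstm1, Dram1 and Tax1bp1 on different sides of the threshold, with the same direction for each.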

How the data were processed

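Per the labels, RNA from corneal endothelium was extracted with TRIzol and made into strand-specific paired-end libraries. The build GRCm39 and the tools fastp, HISAT2, HTSeq and DESeq2 come from the submitters' processing notes. Not given in the sources used are the annotation, how strand was handled in counting, and whether batches were adjusted. The values as deposited by the authors are raw read counts, whole numbers for each gene in 12 libraries. The authors also deposited FPKM values, used only to compare levels between genes. Per the file headers, the authors' tables of their comparisons give each gene's fold change (a ratio), its log2 value, a p-value and a q-value, and normalised mean signal per group, which was not used.

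From the counts, edgeR 4.0.16 in R 4.3.3 fitted the 4 groups of 3 in 1 model (TMM scaling, filterByExpr on the 4 groups, robust quasi-likelihood F test, 8 residual degrees of freedom). Of 32761 genes, 17965 were tested and 14796 were left out for low counts. P-values were adjusted by the Benjamini-Hochberg method over all genes tested, with a threshold of 0.05. Values are given as CPM after TMM scaling, and standard errors of log2 fold changes were taken from the fold change and its F statistic. The depth of 19722598 to 39431676 reads puts 3 reads at 0.076 to 0.152 CPM. The alternatives were DESeq2 1.42.0 (Wald test, and its size factors within edgeR), limma 3.58.1 (voom with sample quality weights), no filter, a filter at 5 CPM in 3 libraries, protein-coding genes alone, the compared libraries alone, replicate number as a block, each library left out in turn, and 2 pairs of libraries left out. The fit was tested on simulated data with changes of 2 sizes, where it recovered most of the larger and missed most of the smaller, so a count of 0 members called leaves room for changes of modest size. Samples were grouped by their titles. Same-numbered mutant and wild-type libraries had correlations of deviations from the group mean between -0.088 and 0.081, so replicate numbers were treated as names, not as pairs. The genes with values in the text are those called, those with the smallest p in each role group at each stage, and 8 fixed genes (Ulk1, Becn1, Atg9a, Map1lc3a, Map1lc3b, Gabarap, Sqstm1 and Dram1); others were named after their values were seen. Members and lists were chosen with earlier results of these data known. The marker lists whose levels are not given are keratocyte, corneal epithelium, lens and vascular endothelium. For keratocyte, 2 of 8 were called higher in mutants at each stage. For corneal epithelium 0 of 8 were called at each stage, and for vascular endothelium 0 of 5. For lens, 0 of 6 tested were called early and 2 late.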

Additional observations from a re-analysis of the deposited data

How the results depend on the processing

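No member was called early in any of the 22 alternatives, which called 0.263% to 1.37% of all genes. With DESeq2 size factors the late count of 1 was 0 (5.61% of all genes were called). It was also 0 with only the libraries compared (3.01%) and with the replicate block (2.54%). It was 3 with no filter on low counts (Becn1, Tmem41b and Vmp1, with 4.6% of all genes), 5 with the DESeq2 Wald test (13.8%) and 2 with limma-voom (9.71%). It was 10 (8 higher, 2 lower; 23.8% of all genes were called) without wild-type replicates 2 (early) and 1 (late), and 15 (8 higher, 7 lower; 25% of all genes) without replicate 1 of both wild-type groups, a setting added after the data were seen. That last setting also gave 4 members for the difference between the stages (Atg3, Gabarapl2, Map1lc3b and Tax1bp1, all lower, against 8.15% of all genes) and 2 for wild type late against early (Atg3 and Map1lc3b, higher, against 1.51%), and limma-voom gave 1 for mutants late against early. Leaving out each library in turn gave 0 to 9 members late, with 1.19% to 20.3% of all genes called. It gave 0 to 0 early (0.263% to 0.93% of all genes) and 0 to 0 for the difference (0% to 1.03%). It also gave 7 to 8 of 10 Atg8 pairs in the same order in all groups, against 8. The late call of Sqstm1 had an adjusted p of 0.0548 with DESeq2 size factors, 0.0519 with no filter, 0.113 with the compared libraries alone and 0.105 with the replicate block, which ended this call and no other member's.

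Among values that passed no test, signs turned for early Becn1 (0.0059 with no filter, 0.18 with limma-voom, 0.097 with the replicate block and 0.62 without both replicates 1) and for late Map1lc3a (0.015 with no filter, 0.00088 with the stricter filter, 0.24 with limma-voom, 0.066 with the block, 0.58 without wild-type replicates 2 (early) and 1 (late), and 0.46 without both replicates 1). They also turned for early Dram1 (1.34) and Vmp1 (-0.25) without wild-type replicates 2 (early) and 1 (late), and for early Map1lc3b (0.20) without both replicates 1. Leaving out 1 library moved the log2 fold change over these ranges: early Atg9a -0.12 to 0.064, Becn1 -0.33 to 0.62, Dram1 -1.45 to 1.34, Dram2 -0.0049 to 0.27, Map1lc3b -0.63 to 0.21, Rb1cc1 -0.25 to 0.13, Uvrag -0.22 to 0.048 and Vmp1 -0.24 to 0.87, and late Map1lc3a -0.32 to 0.59. The cause of these changes was not tested. Depth bears most on Dram1, with at most 33 reads in a library, and 5 other members had under 100 reads in at least 1 library, the lowest being 46 for Atg4c.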

Other observations

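Some genes upstream of autophagy came near the threshold late, and are named here after their values were seen. Sesn1, a stress-induced inhibitor of mTORC1, had 20.8, 24.0 and 20.6 CPM in late mutant libraries, against 41.4, 64.5 and 32.8 CPM in late wild type, without overlap (log2 fold change -1.09 ± 0.33, adjusted p = 0.0562). Bcl2l1, whose protein binds Beclin 1, had 79.4, 58.8 and 72.7 CPM in late mutant libraries, against 35.7, 28.3 and 33.3 CPM in late wild type, also without overlap (1.12 ± 0.34, adjusted p = 0.0564). Rragd encodes a Rag GTPase that brings mTORC1 to the lysosome. It had 23.4, 25.1 and 21.0 CPM in early mutant libraries, against 12.7, 14.1 and 19.3 CPM in early wild type, and 10.9, 16.2 and 13.5 CPM in late mutant libraries, against 23.3, 25.1 and 18.8 CPM in late wild type. Rragd was thus higher in every early mutant library and lower in every late one. Its late minus early difference of -1.32 ± 0.38 had an unadjusted p of 0.00252 but an adjusted p of 0.176.

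The wild-type libraries were spread more widely than the mutant ones for part of the machinery. Map1lc3b was at 1455 CPM in early wild-type replicate 1 and at 1301 and 1169 CPM in late wild-type replicates 2 and 3, against 439.9 to 578 CPM in the other 3 wild-type libraries. All 6 mutant libraries lay between 509 and 789 CPM. Atg3, the enzyme that transfers Atg8 proteins to lipid, was at 172, 152 and 149 CPM in those same 3 wild-type libraries and at 55.8 to 78.2 CPM in the others, with all 6 mutant libraries at 70.9 to 116 CPM. Tax1bp1 was at 306, 394 and 379 CPM in those 3 libraries and at 181 to 190.2 CPM in the other wild-type ones. Its mutant libraries lay between 139 and 293 CPM. The summed CPM of the 40 members ran from 2685 to 3335 in the 6 mutant libraries. In the wild-type libraries it was 4093, 3640 and 3512 for those 3 and 2394 to 2505 for the others. What sets the 3 libraries apart was not tested.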
